A study of Mus musculus with 96 samples.

Results

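The centromere-proximal end of mouse chromosome 4, from 3 to 40 Mb in the mm9 build, is the stretch of this chromosome that lies farthest from every viewpoint of a PE-4Cseq experiment. PE-4Cseq is a chromosome conformation capture assay in which cross-linked chromatin is cut with HindIII, neighbouring ends are ligated, and the fragments joined to 1 chosen fragment, the viewpoint, are read from both ends of the ligation product. The stretch was taken as all HindIII fragments that end between positions 3000001 and 40000000, which gave 12782 of the 48320 fragments listed for the chromosome. It lies 108 to 153 Mb from the 12 viewpoints, counting from the nearest fragment end at the first viewpoint to the farthest at the last. It holds 123 protein-coding gene starts, or 3.32 per Mb, in the GENCODE annotation of the same build.

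The ends of a chromosome meet rarely in ligation assays, because contact frequency falls as genomic separation grows. At such separations the remaining contacts mostly follow the sorting of chromatin into an active, gene-rich compartment and an inactive, gene-poor compartment. Mouse chromosomes are acrocentric, so this stretch begins next to the centromere and its pericentromeric heterochromatin.

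All libraries came from mouse embryonic fibroblasts (MEFs), grown from embryos taken on day 13.5 of crosses between chimeric males and C57BL/6J females and used as confluent cells at passage 4. The chimeras carried an engineered deletion (Df) and duplication of a segment within band 4E2 in 129S5 cells, and reads were assigned to the 129S5 or the C57Bl6 copy by a polymorphism in the viewpoint read. Df is the 129S5 copy with the deletion and +DBl6 the intact C57Bl6 copy of the same cells, from lines 129S5E71 and 129S5E98 (E71 and E98). The chromosomes +129 and +Bl6 are the undeleted 129S5 and C57Bl6 copies of the control lines 129S5E117 and 129S5E118 (E117 and E118). Viewpoints 1 (147.9 Mb) and 2 (148.9 Mb) are centromeric to the deleted segment and viewpoints 11 (154.9 Mb) and 12 (155.5 Mb) telomeric to it, while the other 8, numbered 3 to 10, are lost on Df. Each line gave 1 library per copy and viewpoint, so every group of this report is 2 MEF lines, and the number of lines limits every test. The labelled cell type could not be checked against markers, since the assay measures no expression.

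Of the 96 libraries, 80 were described here, and the 16 Df libraries whose viewpoint is deleted served as background. Chromosome 4 read totals ran from 444 to 3969613 with a median of 950737, and both libraries of line E117 at viewpoint 10 were nearly empty, at 444 and 1255 reads. The other 78 held at least 64058 reads. The stretch itself took 0.607% to 4.82% of the reads outside the 20 kb on both sides of the viewpoint (median 1.87%), spread over 35 to 573 captured fragments per library (median 290). A captured fragment is one with at least 1 read. A median of 30.9% of captured fragments had a single read, and the most abundant fragment held 1.76% to 59.3% of a library's reads in the stretch, so captured fragments rather than reads are the main measure. PCR reads carried no molecular identifiers.

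Some libraries did not behave as independent samples. The replicate lines of +DBl6 at viewpoints 4, 6, 7 and 8, and those of +129 and +Bl6 at viewpoint 9, shared 58.1% to 74% of the captured fragments of the first line in this stretch, against a median of 5.30% in the 32 other replicate pairs. Viewpoints with such pairs or with nearly empty libraries were left out of the comparison concerned, which left 10 viewpoints for +129 against +Bl6, 6 for +DBl6 against +Bl6 and 4 for Df against +129. At viewpoint 11, Df of line E71 shared 46.7% of its captured fragments with +129 of line E117, and +DBl6 of E71 shared 48.4% with +Bl6 of E117. The library labelled +129 of line E117 at viewpoint 11 also held only 0.794% of its reads between viewpoints 3 and 10, a span absent from Df, where the 7 other +129 libraries at the viewpoints outside the deletion held 1.41% to 10.2% and the 8 Df libraries 0.0778% to 0.472%. Values without viewpoint 11 are given for the densities, the loci and the gene contrast. Overlap between deletion and control lines was also high for +DBl6 of E98 with +Bl6 of E118, at 55.1% of the +DBl6 captures at viewpoint 10 and 31.9% at viewpoint 7, neither used for that comparison, and at 17.9% at viewpoint 3, which was used. At viewpoint 5, also used, +DBl6 of E71 shared 12.8% with +Bl6 of E117.

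Both alleles of 1 line overlapped as well. They shared a median of 34.9% of the 129S5 list and 33.6% of the C57Bl6 list in this stretch over 31 pairs of libraries. At the 3381 pairs of a fragment and a library captured on both alleles, the allele with fewer reads had a median of 0.0357 times the reads of the other. In 80.01% of these pairs it had under 10% of the other allele's reads. Removing each capture with under 10% of the other allele's reads gave an alternative list, used for some of the results below. The background Df libraries at viewpoints inside the deletion held 4 to 90 captured fragments in the stretch (median 18, n = 16), against 86 to 459 (median 120) on the +DBl6 copy of the same lines and viewpoints, and a median of 49.7% of those Df captures were also on the +DBl6 copy.

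The data first show how recurrent single contacts were. Of the 12782 fragments, 4777 (37.4%) were captured at no viewpoint, 3419 at 1 viewpoint and 2210 (17.3%) at 3 or more. In the next 80 Mb of the chromosome, from 40 to 120 Mb, 19.3% were never captured and 52.0% were captured at 3 or more viewpoints. The most recurrent fragments of the stretch were seen from 8 of 12 viewpoints. The ends of 3 of the 5 most recurrent are shown because a read is counted only where its 30 bases at the HindIII site match 1 place in the genome. Each is written 5′ to 3′ from mm9 with the HindIII site in capitals, the left end from the plus strand and the right end from the minus strand.
fragment 2, left end: AAGCTTtcaccactacttatccgtcaaatc
fragment 2, right end: AAGCTTcgtaaaccttttctacttgtgacc
fragment 4, left end: AAGCTTtaacatctttagaactatcatgta
fragment 4, right end: AAGCTTttctcaaactcatgaataatgtta
fragment 5, left end: AAGCTTgagtgaaccattggtaccactgca
fragment 5, right end: AAGCTTcagttcatgagcagatagtaaatg
Each of these 6 ends occurred once among the HindIII ends of the mm9 genome and had 0 other ends within 3 mismatches. The left end of fragment 1, not shown, had 1 such other end.

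Fragment 2 (chr4:35077952-35082215) lies in an intron of Mob3b, 17.1 kb from the start of Ifnk, an interferon gene. It was captured in 10 libraries at 8 viewpoints with 1 to 148 reads (median 7.5), and at 6 viewpoints when at least 5 reads were required. Fragment 4 (chr4:32894521-32899531) overlaps an exon of Ankrd6, which codes for an ankyrin repeat protein. It was captured in 17 libraries at 7 viewpoints with 1 to 258 reads (median 6), of which 8 were 129S5 and 9 C57Bl6 libraries, and 9 libraries at 6 viewpoints had at least 5 reads. Fragment 3 (chr4:11640130-11641109), which overlaps an exon of Gem, a small GTPase gene, was captured in 18 libraries at 7 viewpoints. At least 5 reads were present in 7 of these libraries at 4 viewpoints, all of them inside the deletion. These included +DBl6 of E71 at viewpoints 6 and 7 (7 and 9 reads) and +DBl6 of E98 at viewpoint 7 (18 reads). The replicate lines of +DBl6 share molecules at both viewpoints. At viewpoint 7, +Bl6 of E118 (23 reads) also overlaps +DBl6 of E98, as given above, so these libraries are not independent. Outside the deletion the fragment had 1 read at viewpoint 1 and 2 reads at viewpoint 12. All 3 fragments were read on both alleles. For fragments 3 and 4, 1 allele of a line had under 10% of the other's reads at several viewpoints. Fragment 4 had 6 reads on +129 and 258 on +Bl6 of E118 at viewpoint 7. Fragment 3 had 72 on +129 and 1 on +Bl6 of E117 at viewpoint 5.

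Fragments 1 and 5 were recurrent on few reads. Fragment 5 (chr4:27825715-27828973) lies between genes, 911 kb from the start of Epha7, an ephrin receptor gene. At viewpoint 7 it had 16049 reads on +DBl6 of line E71 and 18914 on +DBl6 of line E98, a pair of libraries that share molecules, and in its 14 other libraries it had 1 or 2 reads. Fragment 1 (chr4:11184964-11186763), 3.56 kb from the start of Ints8, a gene for an Integrator subunit, was captured in 11 libraries at 8 viewpoints, and 1 library had at least 5 reads. Requiring 5 reads lowered the share of fragments captured at 3 or more viewpoints to 6.70% in the stretch and to 31.1% from 40 to 120 Mb. Of the 9150 captures with 1 or 2 reads in the stretch, 0.404% were of fragments with at least 1000 reads in another library, against 0.496% of the 10476 captures with 5 or more reads. Of all 12782 fragments of the stretch, 15 (0.117%) had at least 1000 reads in a library. Low counts at fragments with fewer than 1000 reads elsewhere were not examined, so carry-over between libraries was not tested.

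Recapture between lines was low in absolute terms and above the base rate. Over the 10 control viewpoints and both alleles, 5149 captures of line E117 fell in the stretch, and 283 of them (5.50%) were captured again in line E118 at the same viewpoint and allele. Fragments not captured in E117 were captured in E118 at 3.01%, a ratio of 1.83. Such rates are pooled over viewpoints of unequal depth and over fragments with unique and with repeated ends, and the ratio is adjusted for neither. From 63 to 88 Mb the corresponding values were 10.7% and 5.90%, with a ratio of 1.81. In the stretch that ends at 120 Mb, the nearest to the viewpoints, they were 38.3% and 15.9%, with a ratio of 2.42. Most captures in the stretch were thus seen in 1 line only, and values below are pooled over windows and viewpoints.

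The capture rate, the number of captured fragments per 100 HindIII fragments, was lowest in this stretch among the 7 compared. On the control copies at 10 viewpoints it was 2.01 in line E117 and 3.06 in line E118, a mean of 2.54 ± 0.740 (SD, n = 2). The stretch from 40 to 58 Mb reached 5.49 ± 1.73, that from 58 to 63 Mb 5.40 ± 1.48, and that from 63 to 88 Mb 4.96 ± 1.59. The rates then rose towards the viewpoints, to 6.92 ± 2.01 from 88 to 90 Mb, 8.00 ± 2.83 in the stretch that starts at 90 Mb and 15.1 ± 4.81 in the last, which ends at 120 Mb. Both lines gave this order in each pair with the stretch, although the lines differed in overall level, E118 being higher throughout.

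**Figure D1:**
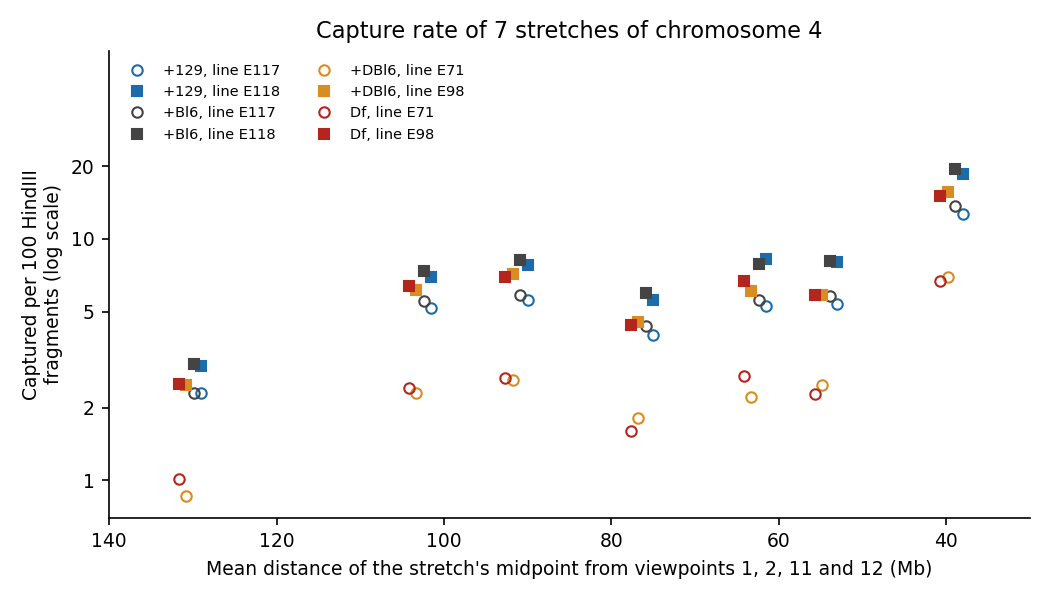
Capture rate, in captured fragments per 100 HindIII fragments on a log axis, of the 3 to 40 Mb stretch (leftmost) and 6 stretches nearer the viewpoints, against the mean distance of each midpoint from viewpoints 1, 2, 11 and 12 in Mb. Each point is 1 line and chromosome copy pooled over these 4 viewpoints, with open circles for the first and filled squares for the second line of a copy, set slightly apart sideways. All 8 points of the leftmost stretch lie below the 8 points of their own line and copy elsewhere, and the order of the stretches is not one of distance alone, since the gene-poor 63 to 88 Mb lies below 40 to 58 Mb.

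The stretch from 63 to 88 Mb is the nearest match in composition. It has 2.60 gene starts per Mb against 3.32, a GC content of 39.3% against 39.5%, a median fragment length of 2031 against 2009 bases, and at least 1 unique end on 94.9% against 92.4% of fragments. Its rate was nonetheless higher in each of the 78 libraries of sufficient depth, with a ratio of 3 to 40 Mb over 63 to 88 Mb of 0.248 to 0.802 and a median of 0.495. Pooled over the control libraries the ratio was 0.525 in line E117 and 0.503 in line E118. It was 0.475 to 0.630 over the 8 combinations of line and copy at viewpoints 1, 2, 11 and 12. With unique-end fragments only the pooled rates were 2.72 and 5.20, with at least 5 reads 1.20 and 2.31, and without the captures under 10% of the other allele's reads 2.18 and 4.28. In 68 of the 78 libraries the stretch was the lowest of all 7. Distance and position next to the centromere cannot be told apart here, since all viewpoints lie at the other end.

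Within the stretch, the rate did not fall with distance. Cut into parts of equal length, its centromeric part gave 2.06 in line E117 and 2.97 in E118, and its distal part gave 1.98 and 3.15. Over the 74 windows of 500 kb, the rate and the window position had a Spearman rho of −0.0445 and a Pearson r of 0.0448. Windows share the same libraries, so these correlations are descriptions.

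The profile of the 74 windows was graded, with a few high peaks. Its lowest, median and highest rates were 0.786, 2.28 and 5.63, against 2.69, 4.71 and 8.58 for the 50 windows from 63 to 88 Mb. Of the 74 windows, 69 lay below the median and 54 below the lowest window of that stretch. The profiles of the control lines had a Pearson r of 0.865 and a Spearman rho of 0.760 over the 74 windows. Between lines of any copies at the 4 viewpoints outside the deletion, Pearson r ranged from 0.694 to 0.848 and rho from 0.404 to 0.732.

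**Figure D2:**
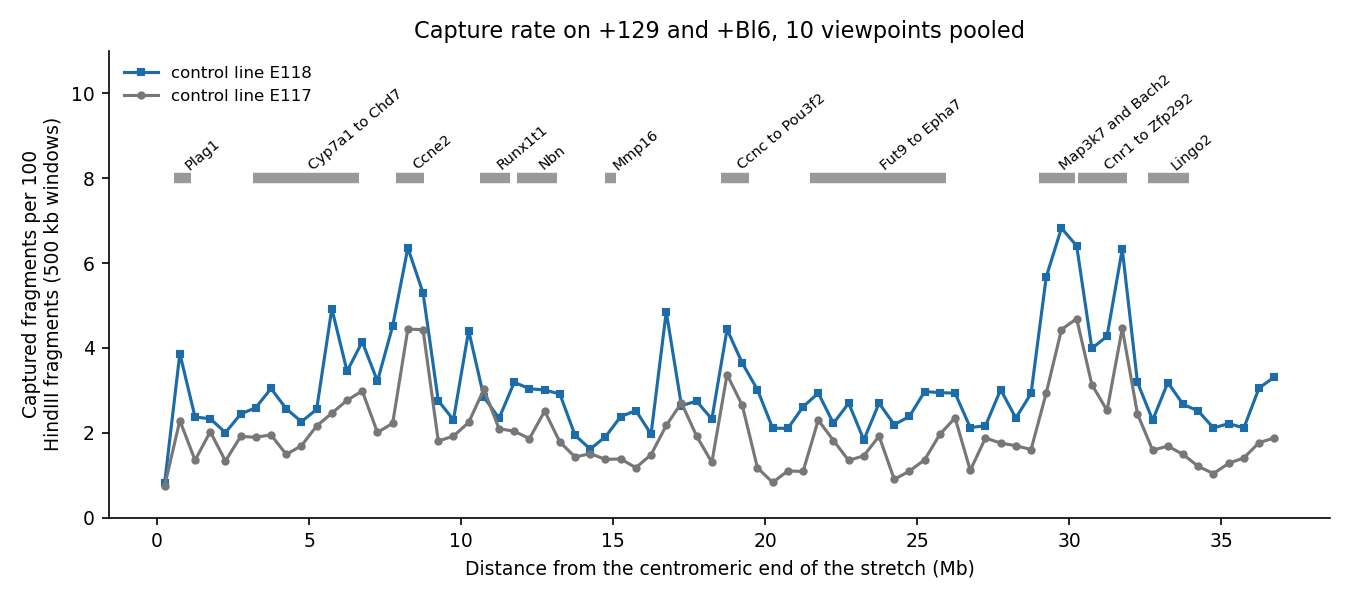
Capture rate, in captured fragments per 100 HindIII fragments, of the 74 windows of 500 kb against distance from the centromeric end of the stretch in Mb, on +129 and +Bl6 pooled over 10 viewpoints. Squares are line E118 and circles line E117, and grey bars mark the 11 named loci. Peaks at the Ccne2 locus and between Map3k7 and Zfp292 rise above 4 in both lines, and the window nearest the centromere is the lowest, at 0.755 in E117 and 0.818 in E118.

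The highest window was chr4:32500001-33000000, with 4.43 in line E117 and 6.82 in line E118. It contains the starts of Gja10, Casp8ap2 (a factor in histone mRNA processing), Mdn1 (a ribosome assembly ATPase) and Lyrm2. The next was chr4:33000001-33500000, with 4.69 and 6.40, which holds 9 gene starts, among them Ankrd6, Rragd (a GTPase of nutrient sensing) and Rngtt (the mRNA capping enzyme). The third was chr4:11000001-11500000, with 4.44 and 6.36. It also holds 9 gene starts, including Ccne2, which codes for cyclin E2, and Ints8. These 3 windows did not differ beyond the spread between the lines, and all of their fragments, or 98.3% and 97.5% of them, had a unique end.

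The lowest window was chr4:3000001-3500000, the first after the assembly gap at the centromere, with 0.755 in line E117 and 0.818 in E118. It contains the vomeronasal receptor genes Vmn1r2 and Vmn1r3, and only 45.9% of its 159 fragments had a unique end. Counting fragments with a unique end alone raised its rate to 1.54, still the lowest of the 74. The next lowest were chr4:23000001-23500000, with 0.833 and 2.11, and chr4:27000001-27500000, with 0.906 and 2.19. Neither contains a gene start. Fragments of the stretch with 2 unique ends were captured at 3.06, those with 1 at 1.42 and those with none at 0.251, so the rate moved with the number of unique ends. The part of mappability in the level of each window was not tested.

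Gene-containing windows were captured more often than windows without a gene. The 40 windows with at least 1 protein-coding gene start had a pooled rate of 2.91 and the 34 without had 2.10, a ratio of 1.39 (1.47 in line E117 and 1.34 in line E118). It was 1.38 without viewpoint 11 and 1.36 without captures under 10% of the other allele's reads. The 18 windows with 3 or more gene starts had a rate of 3.62, or 1.73 times that of windows without genes. The ratio of windows with to windows without genes exceeded 1 in all 8 combinations of copy and line at viewpoints 1, 2, 11 and 12, at 1.39 to 1.78. Windows with genes also had a higher GC content, with a median of 40.6% against 37.6%, and a unique end on a median of 94.3% against 92.6% of fragments. Over the 74 windows the capture rate had a Spearman rho of 0.712 with GC content, 0.652 with the share of unique ends, 0.560 with the number of gene starts and −0.0480 with median fragment length. In the 60 windows with at least 90% unique ends the rho was 0.812 with GC content and 0.656 with gene starts. Gene number and GC content move together here, and their parts cannot be told apart.

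**Figure D3:**
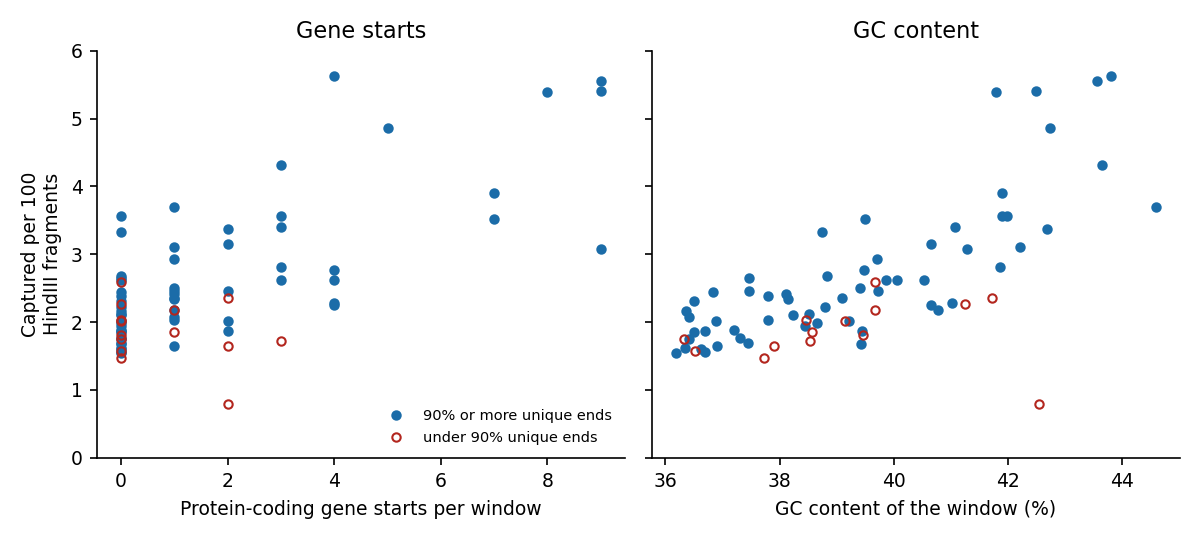
Capture rate of the 74 windows on +129 and +Bl6, in captured fragments per 100 HindIII fragments, against the number of protein-coding gene starts (left) and the GC content in percent (right). Each point is 1 window pooled over 40 libraries, filled where at least 90% of its fragments have a unique end. The rate rises with both, with rho 0.560 and 0.712, and the isolated low point on the right is the window nearest the centromere.

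The contrast between windows with and without genes varied by viewpoint. With both alleles pooled it was 1.53 at viewpoint 1, 1.51 at viewpoint 2, 1.56 at viewpoint 3, 1.40 at viewpoint 4 and 1.44 at viewpoint 5. At viewpoints 6, 7 and 8 it was 1.18, 1.16 and 1.05, and at viewpoints 11 and 12 it was 1.47 and 1.31. In line E118 viewpoints 6, 7 and 8 gave 1.19, 1.09 and 1.04, the 3 lowest of its 10 values. In line E117 they gave 1.10, 1.62 and 1.12, from 79 to 152 captures in the stretch each, against 427 to 1037 at the 7 other viewpoints. With at least 5 reads the E118 ratios were 1.41, 1.22 and 1.17, against 1.30 to 1.72 at its other viewpoints, and the E117 ratios were 0.954, 1.47 and 0.731. The lines thus disagreed at viewpoint 7, and the difference between viewpoints was not tested.

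The named loci fell into a set well above the stretch and a set near or below it. Each locus ran from its first to its last listed gene with 50 kb on both sides, and its rate was divided by the rate of the whole stretch in the same libraries. The Ccne2 block (chr4:10865809-11795042), with the cyclin gene Ccne2, the recombination gene Rad54b, Gem and the splicing regulator Esrp1, was captured at 4.44 in line E117 and 6.07 in line E118, a relative rate of 2.07. The Map3k7 and Bach2 block (chr4:32001072-33189338), with the kinase gene Map3k7 and the transcriptional repressor Bach2, was at 3.86 and 6.42, a relative rate of 2.03. The adjoining Cnr1 to Zfp292 block (chr4:33282398-34904619), with the cannabinoid receptor Cnr1, the replication gene Orc3 and the tRNA synthetase Rars2, was at 3.61 and 4.98, relative 1.69. The Ccnc to Pou3f2 block (chr4:21554627-22465480), which holds the cyclin C gene and a neural transcription factor, was at 3.16 and 4.03, relative 1.42.

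Other loci did not stand out. The Cyp7a1 to Chd7 block (chr4:6142759-9646491), which holds the bile acid synthesis enzyme Cyp7a1, the thymocyte factor Tox and the chromatin remodeller Chd7, had a relative rate of 1.05. Relative rates were 1.03 for the Nbn block, with a gene of the MRN DNA repair complex, 0.997 for Runx1t1, which codes for a transcriptional corepressor, and 0.980 for the Plag1 block, which holds a zinc finger transcription factor and the ribosomal protein gene Rps20. Lower values came from the single long gene loci Lingo2 at 0.887 and Mmp16 at 0.801, and from the gene-poor Fut9 to Epha7 block at 0.814. Ufl1, listed for that block, was not found under this symbol. On unique-end fragments the 4 leading blocks kept relative rates of 1.97, 1.93, 1.61 and 1.36.

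The Ccne2, Map3k7 and Bach2, and Cnr1 to Zfp292 blocks led on all 4 chromosome copies. The Ccnc to Pou3f2 block did not lead on Df, at 1.055 and 1.307 in lines E71 and E98, from 13 and 40 captures. There the Plag1 block was at 1.116 and 1.447 (9 and 29 captures) and Mmp16 at 1.105 and 1.408 (6 and 19). On +DBl6 of E98 the Ccnc to Pou3f2 block, at 1.123, also lay below the Plag1 block (1.161) and the Cyp7a1 to Chd7 block (1.169). At viewpoints 1, 2, 11 and 12 the Ccne2 block was at 2.85 and 2.15 times the stretch on +129 (lines E117 and E118), 2.60 and 2.39 on +Bl6, 2.86 and 2.37 on +DBl6 (lines E71 and E98), and 2.60 and 2.00 on Df. The Map3k7 and Bach2 block was at 1.91 and 2.94 on +129, 2.20 and 2.89 on +Bl6, 3.26 and 2.74 on +DBl6, and 2.41 and 3.09 on Df. The Cnr1 to Zfp292 block ranged from 1.59 to 2.17 over the 8 values, and the Fut9 to Epha7 block from 0.670 to 0.809. The Nbn block, near the level of the stretch over the 10 control viewpoints, was below 1 in all 8 values here, at 0.629 to 0.895. The Ccnc to Pou3f2 block (1.06 to 1.71) and the Cyp7a1 to Chd7 block (1.01 to 1.19) were above 1 in all 8, and the Plag1, Runx1t1, Mmp16 and Lingo2 loci had values on both sides of 1. The ranges of Df and +129 overlapped for the Ccne2 block and for the Map3k7 and Bach2 block. Without viewpoint 11, the Ccne2 block was at 2.03 to 2.85, the Map3k7 and Bach2 block at 1.64 to 3.35, the Cnr1 to Zfp292 block at 1.49 to 1.92, the Fut9 to Epha7 block at 0.724 to 0.857 and the Nbn block at 0.744 to 0.982. The Ccnc to Pou3f2 and Cyp7a1 to Chd7 blocks then also fell on both sides of 1. Both alleles of a line share part of their captures, as given above, so the 8 values are not independent.

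**Figure D4:**
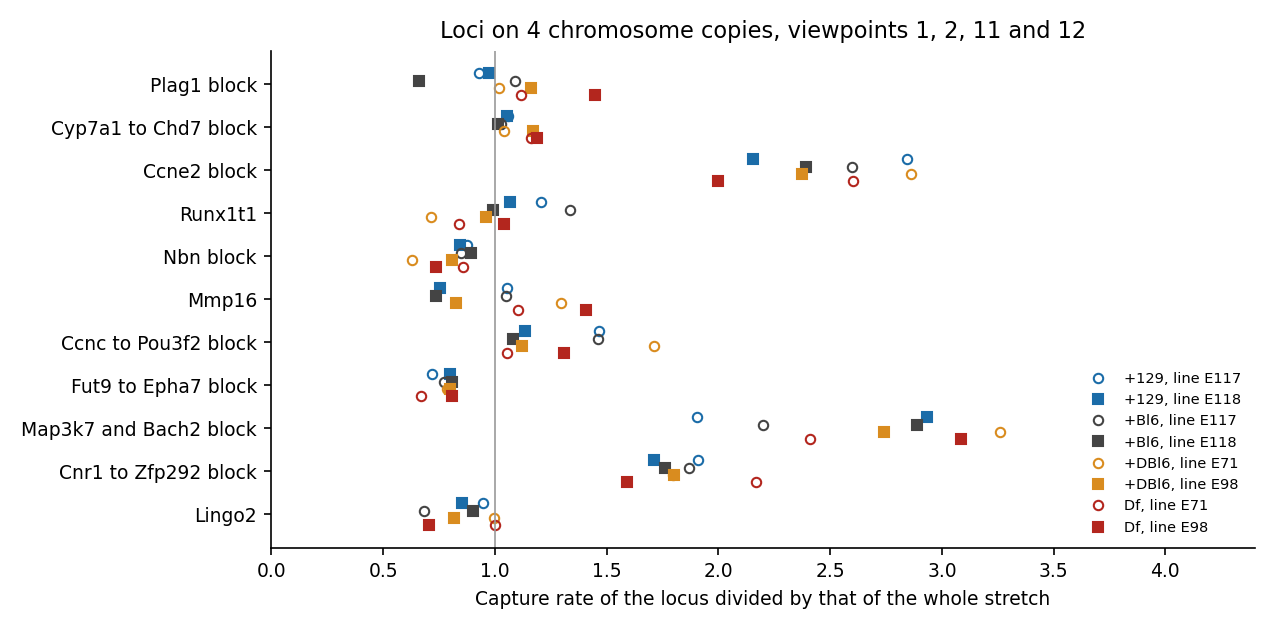
Capture rate of 11 loci divided by the rate of the whole 3 to 40 Mb stretch, per line and chromosome copy, pooled over viewpoints 1, 2, 11 and 12. Open circles are the first and filled squares the second line of each copy, and the grey line marks a rate equal to the stretch. The Ccne2, Map3k7 and Bach2, and Cnr1 to Zfp292 blocks lie above 1.5 in all 8 values, and the Fut9 to Epha7 and Nbn blocks lie below 1 in all 8.

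Seen per viewpoint, the highest window lay in the Ccne2 block or between Map3k7 and Zfp292, except at viewpoints 6 and 8. The control libraries of 10 viewpoints also entered the pooled profile, so this is no independent check of it. Replicate lines share molecules at viewpoints 4, 6, 7 and 8 on +DBl6 and at viewpoint 9 on the control copies. The window with the highest rate over all libraries of a viewpoint was chr4:32500001-33000000 at viewpoints 1, 2, 10, 11 and 12, and chr4:34500001-35000000, with Orc3, Rars2 and Zfp292, at viewpoints 3, 5, 7 and 9. It was chr4:11500001-12000000, with Gem, at viewpoint 4, chr4:3500001-4000000, with Plag1, at viewpoint 6, and chr4:22000001-22500000, with Pou3f2, at viewpoint 8. Over the 23 libraries of +129 the capture rate of the stretch ran from 0.274 to 4.48 (median 2.91), over the 23 of +Bl6 from 0.344 to 4.39 (median 2.83), over the 24 of +DBl6 from 0.415 to 3.59 (median 1.15) and over the 8 of Df from 0.368 to 3.64 (median 1.71). The sparsest, +129 of line E117 at viewpoint 8, left 48 of the 74 windows without a capture. The rates were not scaled to the depth or total captures of a library, and Df has viewpoints 1, 2, 11 and 12 only. They therefore do not compare the copies. Divided by the rate from 40 to 120 Mb, the medians were 0.350 on +129, 0.330 on +Bl6, 0.285 on +DBl6 and 0.353 on Df.

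The comparison of the deleted chromosome with its control asks whether loss of a segment within band 4E2 changed contacts with the far end of the chromosome. The relative capture density, the rate in the stretch over that from 40 to 120 Mb, was 0.350 in each of the Df lines E71 and E98, a mean of 0.350 ± 0.000342 (SD, n = 2). On +129 it was 0.371 in E117 and 0.336 in E118, a mean of 0.354 ± 0.0254. The Df values lay between the +129 values, and the difference of −0.00357 had a two-sided exact permutation p of 1. With 2 lines against 2, no p below 0.3333 can be reached. Without viewpoint 11 the difference was −0.00251, and without captures under 10% of the other allele's reads it was −0.000298. The relative read density, a mean over viewpoints of the same ratio in reads, was 0.259 and 0.319 on Df and 0.301 and 0.274 on +129 (exact permutation p = 1). The +129 range lay inside the Df range, and the read difference turned from 0.00174 to −0.0186 without viewpoint 11.

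On the intact homologue, +DBl6 gave a relative capture density of 0.302 in line E71 and 0.328 in E98 over 6 viewpoints. The +Bl6 values were 0.344 in E117 and 0.324 in E118. The groups overlapped, with means of 0.314 ± 0.0184 and 0.334 ± 0.0141 (SD, n = 2 each, exact permutation p = 0.667). The difference of −0.0190 was −0.00602 without E71, −0.0321 without E98, −0.00905 without E117 and −0.0290 without E118. It was −0.0389 with all viewpoints as labelled (exact permutation p = 0.3333), −0.0217 without viewpoint 11 and −0.0200 without captures under 10% of the other allele's reads. In reads, +DBl6 lay at 0.243 and 0.253 and +Bl6 at 0.271 and 0.264, so both +DBl6 lines were lower. The difference of −0.0203 had an exact permutation p of 0.3333, the smallest this design allows. It was −0.0317 without viewpoint 11.

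In control cells, the ranges of both alleles overlapped. Over 10 viewpoints the relative capture density of +129 was 0.354 in E117 and 0.3334 in E118, and that of +Bl6 was 0.339 and 0.328 (exact permutation p = 0.667). The relative read density was 0.269 and 0.278 on +129 and 0.275 and 0.287 on +Bl6 (exact permutation p = 0.667). These tests left the values unpaired, although both alleles came from the same 2 lines. In each line the 129S5 copy was higher in captures (by 0.0151 in E117 and 0.00546 in E118) and lower in reads. Taken as 2 pairs, the exact sign test gave p = 0.5 for each measure, the smallest that 2 pairs allow. Without viewpoint 11 the differences were 0.00807 in captures and −0.00936 in reads, and the capture difference was 0.0147 without captures under 10% of the other allele's reads.

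**Figure D5:**
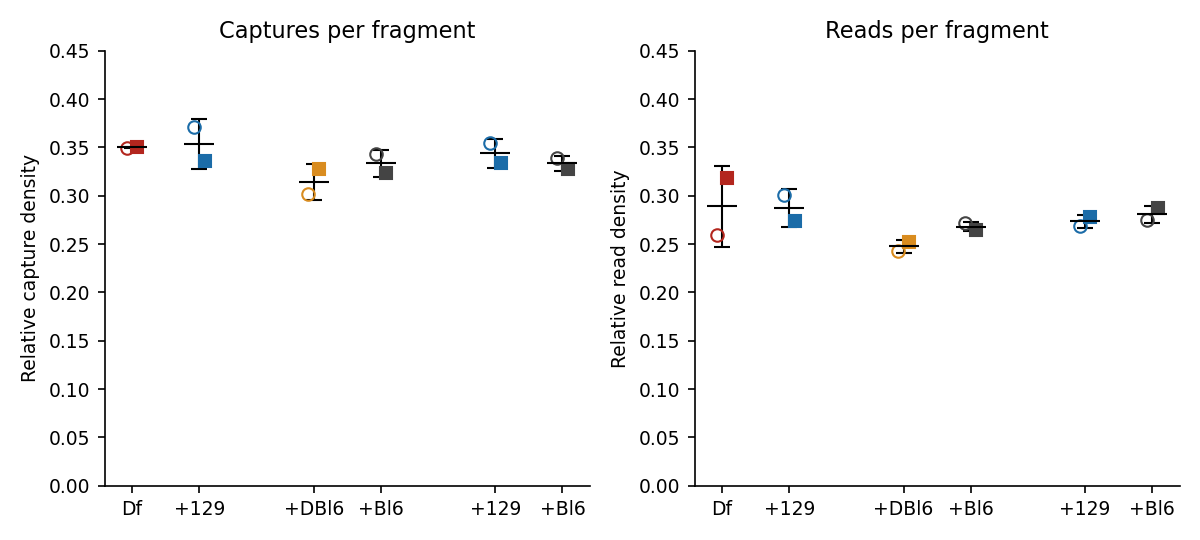
Relative capture density (left) and relative read density (right) of 3 to 40 Mb over 40 to 120 Mb for the 3 comparisons, with 4, 6 and 10 viewpoints from left to right in each panel. Open circles are the first and filled squares the second MEF line of a copy (E71 and E98, or E117 and E118), and bars give the mean and SD of 2 lines. Groups overlap except for reads of +DBl6 against +Bl6.

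Single 500 kb windows were tested over the whole chromosome with edgeR's quasi-likelihood test. For Df against +129 by captured fragments, 2.98% of 302 windows of the chromosome had an adjusted p under 0.05, and 0 of the 74 windows of the stretch. Of the 9 windows called, 1 was higher on Df. The windows tested include the segment deleted on Df, where its counts must be lower, so this share is not one of changed contacts alone. At an unadjusted p under 0.05 there was 1 window in the stretch, and DESeq2 called 0. By reads 2.97% of 303 windows were called, again 0 in the stretch, with 1 at an unadjusted p under 0.05 and 0 called by DESeq2. Of the 9 called by reads, 0 were higher on Df. The median log2 change in the stretch was 0.00 by captures and −0.17 by reads, against 0.00 and 0.03 over all windows tested. Per viewpoint, 1.63% of 1102 windows were called and 0 of 242 in the stretch, with 11 at an unadjusted p under 0.05, while DESeq2 called 3.

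For +DBl6 against +Bl6, 0% of 303 windows were called by captured fragments and 0% of 303 by reads, with 3 and 0 windows of the stretch at an unadjusted edgeR p under 0.05 and 0 called by DESeq2 in both. Per viewpoint 0.174% of 1726 windows were called and 0 of 394 in the stretch, where 16 had an unadjusted p under 0.05 and DESeq2 called 5. The median log2 change in the stretch was −0.10 by captures and −0.26 by reads, against −0.02 and −0.03 over all windows. For +129 against +Bl6, 0% of 305 windows were called by captures and 0% of 303 by reads, with 0 and 1 windows of the stretch at an unadjusted edgeR p under 0.05 and 0 called by DESeq2 in both. Per viewpoint 0.0346% of 2889 were called and 0 of 661 in the stretch, where 33 had an unadjusted p under 0.05 and DESeq2 called 7. No window of the stretch was thus called by edgeR at this depth, which does not show that the copies are alike.

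None of the windows with the smallest p passed the test. For Df against +129 by captures, chr4:38500001-39000000, a window without a gene start, had 10 and 12 captures on Df and 7 and 9 on +129, a log2 change of 1.01 after scaling to the captures of each line (SE 0.50, edgeR adjusted p = 0.435). The next was chr4:11500001-12000000, with Gem, at 15 and 33 captures on Df and 56 and 40 on +129, a log2 change of −0.48 (SE 0.28, edgeR adjusted p = 0.676). By reads, the centromeric window chr4:3000001-3500000 had 0 and 7 reads on Df and 96 and 71 on +129 (edgeR adjusted p = 0.416), and at viewpoint 12 alone 0 and 0 against 50 and 63 (edgeR adjusted p = 0.214). That window has the lowest share of unique ends of the stretch. By reads chr4:10000001-10500000 had 660 and 31 on Df and 207 and 224 on +129 (edgeR adjusted p = 0.997), and chr4:15000001-15500000, at viewpoint 12, 9 and 4 against 162 and 47 (edgeR adjusted p = 0.409).

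For +DBl6 against +Bl6 the leading windows by captures were chr4:5500001-6000000, with 7 and 18 captures against 37 and 38 and a log2 change of −1.09 (SE 0.37), and chr4:6500001-7000000, the window with Tox, with 19 and 44 against 19 and 31 and a log2 change of 0.83 (SE 0.31). Both had an edgeR adjusted p of 0.809. By reads the leading windows were chr4:37500001-38000000, with 132 and 2277 reads against 123 and 389, and chr4:3000001-3500000, with 23 and 217 against 18 and 11 (edgeR adjusted p = 0.860 for both). Per viewpoint they were chr4:14000001-14500000 at viewpoint 12, with 0 and 2 reads against 90 and 73, and chr4:23500001-24000000 at viewpoint 2, with 0 and 0 against 30 and 42 (edgeR adjusted p = 1.00 for both). For +129 against +Bl6 the leading windows by captures were chr4:6500001-7000000, with 42 and 58 against 26 and 48, and chr4:28500001-29000000, with Epha7, at 41 and 57 against 29 and 48 (edgeR adjusted p = 0.996 for both). By reads they were chr4:20500001-21000000, with 953 and 2056 against 329 and 984, and chr4:30000001-30500000, with 357 and 1013 against 2008 and 905 (edgeR adjusted p = 0.995 for both). Per viewpoint they were chr4:7500001-8000000 at viewpoint 12, with 27 and 119 reads against 2 and 3, and chr4:24000001-24500000 at viewpoint 4, with 13 and 13 against 126 and 220 (edgeR adjusted p = 0.756 and 0.784).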

How the data were processed

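The 96 deposited tables give, for every HindIII fragment of chromosome 4, its raw read counts. The authors assigned read pairs to an allele by a strain polymorphism, aligned 30-base reads with Bowtie (version not given in the sources used here) to mm9 and kept unique matches. The deposited counts carry no bias correction, smoothing or scaling. Another 16 tables, the authors' own lists of regions with differential contacts, were not used.

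All fragment ends matched the 48319 HindIII sites of NCBIM37, so coordinates and GENCODE genes of that build were used directly. Reads within 20 kb of the viewpoint were left out. Libraries under 10000 reads, and replicate pairs whose log reads correlated above 0.9 at shared fragments, removed their viewpoint from a comparison. Windows with at least 10 captures in all, or 10 reads in at least 2 of 4 lines, entered the test by edgeR 4.0.16, run under R 4.3.3 (TMM, Benjamini-Hochberg over the chromosome), with DESeq2 1.42.0 as an alternative. Relative densities were compared by exact two-sided permutation over lines. The scripts were tested on simulated data. Viewpoint PCR products from E71 and E117 were purified with the High Pure kit and those from E98 and E118 with AMPure beads, which paired the lines, and both control alleles came from the same MEF lines. Deviations of paired samples correlated at 0.0306 to 0.169 across groups and at 0.444 and 0.393 between the control alleles. Alternatives covered the capture minimum, the reference stretch, window size, viewpoints and lines. Windows and fragments named are the 3 highest and 3 lowest by capture rate with at least 50 fragments, the 2 with the smallest p per test, and the 5 fragments captured at most viewpoints. Members, loci and lists were chosen with earlier results of these data known. The p-values measure the spread between 2 lines.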

Additional observations from a re-analysis of the deposited data

Results flagged for a closer look

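The Df libraries at viewpoints inside the deletion, outside every comparison above, held a median of 18 captured fragments in the stretch (4 to 90 per library). A median above 3 was the limit set for flagging. The viewpoint fragment is missing from these chromosomes, and a median of 49.7% of the captures were shared with the +DBl6 library of the same line and viewpoint.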

How the results depend on the processing

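All 90 recomputed counts of called windows in the stretch started from 0, and 82 stayed at 0. Per viewpoint, DESeq2 called 3 windows in the Df comparison, 5 in that of +DBl6 and 7 between the control alleles. Leaving out 1 line gave 0 to 3 windows per viewpoint for Df against +129 (1 without E71 and 3 without E98), 0 to 3 per viewpoint for +DBl6 against +Bl6 (3 without E98), and 0 to 2 by pooled reads for +DBl6 against +Bl6 (2 without E98). With all viewpoints as labelled, that last count was 3. Counts without 1 line were not run for +129 against +Bl6, where 1 line holds both alleles and no residual degrees of freedom remain. Of 56 recomputed density differences 48 kept their direction and 8 reversed. For Df against +129 the capture difference was 0.00564 with at least 5 reads, 0.00233 with 63 to 120 Mb as reference and −0.0215 to 0.0144 without 1 line (0.0144 without E117), and the read difference was −0.0186 without viewpoint 11 and −0.0279 to 0.0313 without 1 line (−0.0279 without E98, −0.0119 without E118). For +129 against +Bl6 the read difference was 0.000524 with all viewpoints and 0.00127 with fragments capped at 100 reads. No exact p fell below 0.3333. The ratio to 63 to 88 Mb was 0.533 at viewpoints 1, 2, 11 and 12 and 0.502 without viewpoint 11, and the contrast of windows with and without genes ranged from 1.34 to 1.47. With the replicate block (purification batch, or MEF line for both control alleles), 0 windows of the stretch were called, and the pairing changed no other call. Alternatives for the allele overlap, for unique ends, for the loci, for the gene contrast and for the profile were chosen after seeing the data. Captures per library, 35 to 573 over 74 windows, limit what single windows can show. Removing captures under 10% of the other allele's reads left 0 windows called by captures, with 3, 5 and 0 at an unadjusted edgeR p under 0.05, and leaving out viewpoint 11 left 0 in every window test.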
